A study of Homo sapiens with 6 samples.

Results

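The long noncoding RNAs (lncRNAs) described here carry a LINC name with a number and were expressed in cells labelled HCCLM3, an established hepatoma cell line. They were selected as genes other than LINC00862 whose name is LINC followed only by digits and whose counts added up to at least 500 over the 6 libraries. This left 131 of the 975 LINC-numbered genes among the 35856 genes of the deposited table, and all 131 were tested. RNA was sequenced from 3 libraries of cells transfected with a LINC00862 vector (LINC00862) and 3 libraries of cells transfected with an empty vector (Empty, labelled NC), with 58241123 to 68229070 counts per library. Both groups were labelled as the same cell line, and each was given a vector. Neither the labels nor the methods used here say whether replicates came from separate cultures, so p-values measure only the spread between these libraries. Because each group had its own transfected cells, an effect of LINC00862 and any other difference between the cultures cannot be told apart.

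LINC names are given to lncRNA genes that lie between or beside protein-coding genes and have no better known function. Such RNAs are usually spliced and polyadenylated, are present at lower levels than most mRNAs, and are often made in only some tissues. Some act on the gene next to them, some act elsewhere in the nucleus or cytoplasm, and for many no function is known. The start of a lncRNA gene may lie in a CpG-rich promoter, the kind that most broadly expressed genes use, or in a CpG-poor one.

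The promoters of 7 genes were taken from RefSeq (GRCh38.p14, 250 bases before to 50 bases after the start) to show the types of start met among these genes. Each is written 5′ to 3′ on the strand of its gene, and capitals mark CG dinucleotides. LINC00862 is the overexpressed RNA, and its window (chr1:200373743-200374042, minus strand) holds 3 CG dinucleotides. The window is that of the chromosomal gene and is shown for comparison with the others.
LINC00862: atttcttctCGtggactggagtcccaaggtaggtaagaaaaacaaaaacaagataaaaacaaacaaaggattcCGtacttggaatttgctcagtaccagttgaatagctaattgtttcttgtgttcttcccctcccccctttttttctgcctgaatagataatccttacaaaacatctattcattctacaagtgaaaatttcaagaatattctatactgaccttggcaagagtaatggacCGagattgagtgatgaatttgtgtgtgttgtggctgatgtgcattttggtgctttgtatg
LINC00261 (chr20:22578593-22578892, minus strand) and LINC00659 (chr20:62776807-62777106, minus strand) are shown because they were nearly or fully undetected in Empty and detected in LINC00862, and they hold 8 and 6 CG dinucleotides.
LINC00261: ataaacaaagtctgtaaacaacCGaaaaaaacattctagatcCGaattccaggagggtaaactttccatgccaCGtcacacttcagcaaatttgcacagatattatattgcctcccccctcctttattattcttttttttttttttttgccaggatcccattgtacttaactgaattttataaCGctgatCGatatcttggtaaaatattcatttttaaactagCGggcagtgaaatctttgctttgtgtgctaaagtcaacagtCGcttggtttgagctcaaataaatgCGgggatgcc
LINC00659: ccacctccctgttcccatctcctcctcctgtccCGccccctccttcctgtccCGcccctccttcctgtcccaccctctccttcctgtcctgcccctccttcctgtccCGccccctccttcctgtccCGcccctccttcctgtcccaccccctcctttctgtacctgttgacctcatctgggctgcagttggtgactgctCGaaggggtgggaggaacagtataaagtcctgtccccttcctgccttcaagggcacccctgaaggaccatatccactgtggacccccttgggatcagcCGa
LINC01444 (chr18:14970419-14970718, minus strand) and LINC00839 (chr10:42475241-42475540, plus strand) are shown for the opposite pattern, and hold 2 and 9 CG dinucleotides.
LINC01444: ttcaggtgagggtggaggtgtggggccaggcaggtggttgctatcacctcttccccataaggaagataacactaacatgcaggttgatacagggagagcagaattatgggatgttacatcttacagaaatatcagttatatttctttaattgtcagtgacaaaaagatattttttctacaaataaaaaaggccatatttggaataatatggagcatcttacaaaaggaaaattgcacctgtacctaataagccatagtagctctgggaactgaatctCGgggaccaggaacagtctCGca
LINC00839: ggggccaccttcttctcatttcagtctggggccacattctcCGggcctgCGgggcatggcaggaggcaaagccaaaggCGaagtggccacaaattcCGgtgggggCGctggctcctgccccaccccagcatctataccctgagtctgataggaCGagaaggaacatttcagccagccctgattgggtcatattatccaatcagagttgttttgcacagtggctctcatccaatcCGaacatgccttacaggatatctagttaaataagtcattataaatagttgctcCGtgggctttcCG
LINC00662 (chr19:27793891-27794190, minus strand) and LINC01134 (chr1:3900154-3900453, plus strand) are shown because they were detected in all 6 libraries, and hold 20 and 32 CG dinucleotides.
LINC00662: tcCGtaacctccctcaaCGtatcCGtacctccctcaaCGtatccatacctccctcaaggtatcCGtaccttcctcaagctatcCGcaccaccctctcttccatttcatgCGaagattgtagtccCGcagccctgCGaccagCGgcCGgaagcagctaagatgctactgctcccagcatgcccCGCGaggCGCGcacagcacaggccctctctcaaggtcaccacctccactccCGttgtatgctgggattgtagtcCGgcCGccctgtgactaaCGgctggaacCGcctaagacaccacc
LINC01134: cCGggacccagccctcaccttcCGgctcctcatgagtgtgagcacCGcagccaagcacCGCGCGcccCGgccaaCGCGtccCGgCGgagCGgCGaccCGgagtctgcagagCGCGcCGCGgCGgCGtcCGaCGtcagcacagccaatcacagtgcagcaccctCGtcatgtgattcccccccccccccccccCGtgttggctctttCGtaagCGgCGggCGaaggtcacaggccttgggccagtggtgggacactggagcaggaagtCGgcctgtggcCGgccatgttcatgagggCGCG

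The overexpressed RNA itself was a low-level lncRNA in this data set. LINC00862 (ENSG00000203721, hg38 chromosome 1, 200253419 to 200374688, minus strand) had 11, 21 and 6 counts in the Empty libraries and 145, 121 and 76 counts in the LINC00862 libraries. Each library labelled LINC00862 exceeded each Empty library, which is the direction the labels give. The groups also did not overlap for 71.1% of all genes tested, so this alone does not single out LINC00862. The LINC00862 sum of 380 counts lay under the limit of 500, so it would not have entered the selection by its level. In FPKM, the fragment number scaled to transcript length and to library size, the Empty mean was 0.0507 ± 0.0343 and the LINC00862 mean 0.449 ± 0.120 (SD, n = 3 each). Its log2 fold change was 3.22 with a standard error of 0.53 (adjusted p = 0.000583, edgeR's quasi-likelihood test), and 3.83 without Empty library 2. Of the 279 other LINC-numbered genes tested under 500 counts, 59.9% were higher and 13.3% lower, with a median log2 fold change of 2.75. An exact two-sided permutation test of LINC00862 FPKM gave p = 0.1, the smallest p that 3 against 3 libraries allow, here and for any single gene.

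Set beside the 131 other RNAs, LINC00862 stood low in both groups. Those RNAs were kept for at least 500 counts, which LINC00862 did not reach, so its low place follows in part from the limit. Ranked by mean FPKM among 132 genes it was 98th in Empty and 100th in LINC00862. In single libraries the rank was 97, 90 and 101 in Empty and 95, 95 and 107 in LINC00862. In the cells that received its vector, the highest of the other RNAs had 25.6 times its level and the median one 2.23 times its level. The plot of ranked levels shows that the curve of the other RNAs lay higher in the LINC00862 libraries, and the rank of LINC00862 hardly changed. This is a description only, since the limit on counts used these same values and can be met from the LINC00862 libraries alone.

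**Figure D1:**
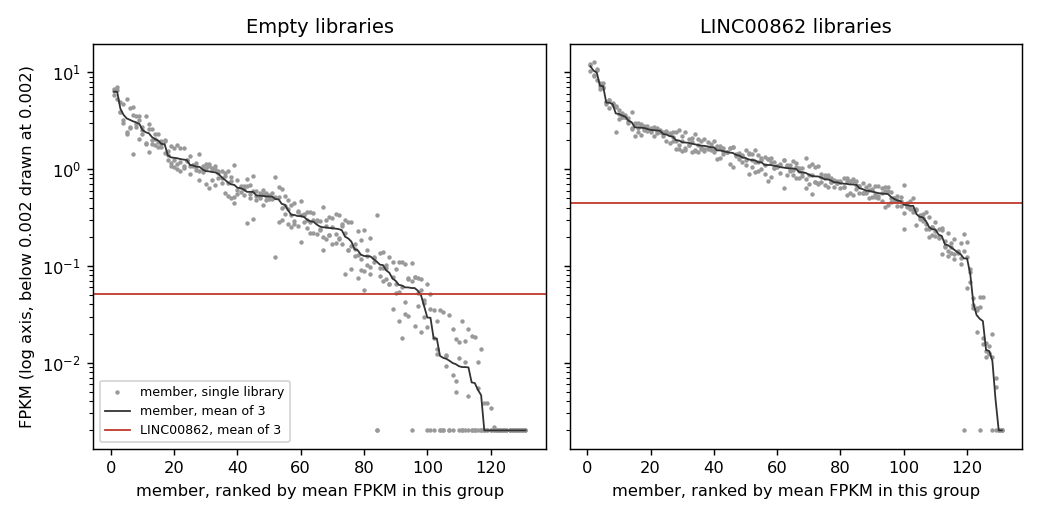
FPKM (log axis, values below 0.002 drawn at 0.002) of the 131 LINC-numbered RNAs ranked by group mean, with single libraries as grey points, the mean of 3 libraries as a black line and the mean of LINC00862 as a red line. LINC00862 crosses the ranked curve near place 98 in Empty and near place 100 in LINC00862.

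The 131 RNAs were on the whole higher in LINC00862. At a false discovery rate of 0.05, 87 were up-regulated (66.4%), 22 were down-regulated (16.8%) and 22 were not called. Over all 20741 genes tested, 34.4% were called higher and 29.8% lower, and among the 14321 other genes with at least 500 counts the shares were 32.1% higher and 38% lower. The median log2 fold change was 2.06, against 0.11 over all genes tested. The FPKM of the groups did not overlap for 110 of the 131 (84.0%), against 71.1% of all genes tested, and 102 changed at least 2-fold by the fitted value. These counts include RNAs that met the limit on counts mainly from a single group, which are taken apart below. The tilt was not tested against other genes. Genes with antisense names and at least 500 counts also leaned upward, with 116 of 224 higher and 33 lower and a median of 0.92.

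The summed amount of these RNAs was also higher in LINC00862. The set had 29648 to 35059 counts in an Empty library and 66834 to 80544 in a LINC00862 library. LINC00963 alone had 1617 to 2175 and 9827 to 12754 of these, so the sums weigh abundant RNAs most. The 131 RNAs together took 0.0535% ± 0.00460 of all counts (SD, n = 3) in Empty and 0.117% ± 0.00362 in LINC00862. The groups did not overlap, which is a description, since the limit on counts used these same values. Their summed FPKM was 88.5 to 99.4 in the Empty libraries and 193 to 202 in the LINC00862 libraries. Between 28 and 32 of them reached 1 FPKM in an Empty library, and between 60 and 66 did so in a LINC00862 library. At the other end, 18 to 24 were at 0 in an Empty library and 2 to 6 in a LINC00862 library. Antisense-named genes rose in share as well, from 0.139% ± 0.0116 to 0.232% ± 0.00795 of all counts (SD, n = 3).

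**Figure D2:**
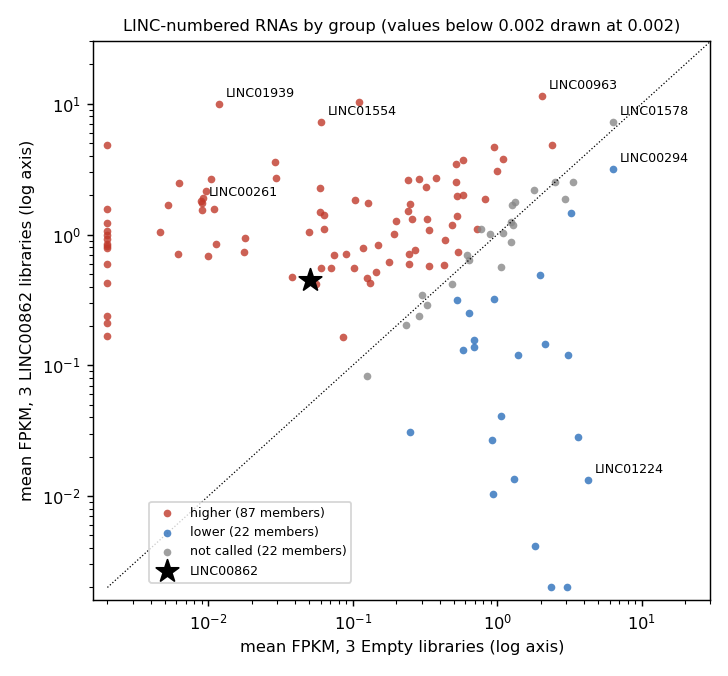
Mean FPKM of each of the 131 RNAs in the 3 Empty libraries (x axis) and the 3 LINC00862 libraries (y axis), both on log axes, coloured by the call of edgeR's quasi-likelihood test, with LINC00862 as a star and equality as a dotted line. The 87 RNAs called higher lie above the line, many of them at the left edge where the Empty level was at or near 0, and the 22 called lower lie below it.

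The limit of 500 counts can be met from one group alone, and a gene that met it that way had to differ. For 79 of the RNAs the counts of one group fell short of 250, and 62 of these were higher and 16 lower. These 79 are therefore described only. The comparison that the limit does not decide is that of the 52 RNAs with at least 250 counts in each group. Of them 25 were higher (48.1%), 6 were lower (11.5%) and 21 were not called, with a median log2 fold change of 0.60. The 11903 other genes with the same limit had 26.3% higher, 39% lower and a median of -0.21. The FPKM of the groups did not overlap for 32 of the 52 (61.5%), against 71.5% of these other genes. Of the 52, 59.6% were called in either direction, against 65.3%. Among these 52 the fitted rises ran from 0.63 to 3.01 with a median of 1.95, and the fitted falls from -2.13 to -0.54 with a median of -1.17.

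LINC00963, a lncRNA studied in prostate cancer, had the highest count sum of the 131. It had 1913, 1617 and 2175 counts in Empty and 12754, 11440 and 9827 counts in LINC00862. All LINC00862 libraries lay far above the Empty libraries. Its FPKM was 2.04 ± 0.275 and 11.5 ± 0.990 (SD, n = 3 each), a log2 fold change of 2.67 with a standard error of 0.16 (adjusted p = 1.21e-06, edgeR). LINC00662 had 653, 524 and 537 counts in Empty and 3488, 3088 and 2655 in LINC00862, with a log2 fold change of 2.52 (standard error 0.14). LINC00467, whose transcript has been reported to encode a small peptide, had 117, 197 and 157 counts in Empty and 545, 550 and 486 in LINC00862 (log2 fold change 1.83, adjusted p = 0.000402, edgeR). Neither of these overlapped between the groups.

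LINC01578, also called CHASERR, lies beside CHD2, a chromatin remodeler that it is known to restrain in cis. LINC01578 and LINC00294 had the highest Empty levels of the 131 and lay within the spread of each other. The FPKM of LINC01578 was 5.34, 6.56 and 6.99 in Empty and 6.81, 6.97 and 7.82 in LINC00862. The groups overlapped, and the log2 fold change of 0.36 (standard error 0.18) was not called (adjusted p = 0.112, edgeR). CHD2, chosen for this known link after values were seen, had 4.50 ± 1.10 FPKM in Empty and 3.60 ± 0.204 FPKM in LINC00862 (SD, n = 3 each; adjusted p = 0.481, edgeR).

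Falls among RNAs with counts in both groups were fewer and smaller. LINC00294 had 6.42, 5.80 and 6.70 FPKM in Empty and 3.38, 2.99 and 3.13 FPKM in LINC00862, without overlap, and a log2 fold change of -0.82 (adjusted p = 0.00179, edgeR). It overlaps the protein-coding gene TCP11L1 on the same strand in the deposited coordinates, and counts of overlapping genes are uncertain. LINC00511, named in many studies of tumour growth, had 967, 881 and 1056 counts in Empty and 740, 588 and 549 in LINC00862. Its log2 fold change of -0.54 passed (adjusted p = 0.0207, edgeR) but was not called with the replicate block (0.0689), with upper quartile scaling (0.127) or without any single LINC00862 library or Empty library 3 (0.0537 to 0.0790).

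A set of 38 RNAs lay under 0.1 FPKM in each Empty library and at or above it in each LINC00862 library. The study left genes out below this level. This split was made after the values were seen. All 38 were called higher, which follows from how the split was made. Their mean FPKM in LINC00862 ran from 0.167 to 9.93 with a median of 1.02. Over all genes tested, 9.80% met the same description, and 5.33% of the other genes with at least 500 counts did. Among LINC-numbered genes tested with fewer than 500 counts the share was 32.6%. The pattern was thus not particular to the 131 RNAs, of which 38 met it. For 10 of the 38 there was no count in any Empty library, and their change is given as a lower bound, with a floor of 3 counts per library and counts taken relative to each library's total.

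LINC01446 had 641, 573 and 580 counts in the LINC00862 libraries and was at least 190-fold higher there. LINC00659 had 574, 477 and 508 counts, 4.86 ± 0.129 FPKM (SD, n = 3), and was at least 165-fold higher. LINC00355 had 361, 324 and 240 counts and was at least 97.6-fold higher. These RNAs had no count in any Empty library and at least 240 counts in each LINC00862 library. The other 7, LINC01694, LINC02261, LINC00648, LINC01391, LINC02377, LINC01993 and LINC01091, were between at least 54.8-fold and at least 94.2-fold higher. LINC02241 had 2 counts in all of Empty and 656, 638 and 539 in LINC00862, a ratio of 873 with a 95% counting interval of 241 to 7215. LINC01234 had 3 counts in Empty and 238, 206 and 172 in LINC00862, a ratio of 196 with an interval of 66.6 to 951. These intervals and floors cover counting error only and take each count as 1 fragment. Low counts in the table pile up at 4, with 8142 entries of 4 against 4619 of 3 and 2777 of 5, and how many counts one fragment is worth is not given in the sources used here. With a floor of 12 counts per library, chosen after this was seen, the bounds of the 10 RNAs were 13.7-fold to 47.5-fold, and the intervals are too narrow if a fragment gave several counts.

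Some RNAs near 0 in Empty were among the most abundant in LINC00862. LINC01939 had 0, 0.0353 and 0 FPKM in Empty and 10.5, 8.40 and 10.9 FPKM in LINC00862. LINC02489 had 0, 0.333 and 0 FPKM in Empty, the one value above 0 resting on 8 counts, and 9.29, 12.7 and 9.19 FPKM in LINC00862. LINC01554, a liver-enriched lncRNA, had 0.106, 0.0318 and 0.0428 FPKM in Empty and 7.23, 6.74 and 7.83 FPKM in LINC00862. LINC01554 did not overlap between the groups and was among the 4 highest RNAs in LINC00862, with a log2 fold change of 7.04 (standard error 0.37).

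The opposite pattern, under 0.1 FPKM in each LINC00862 library and at or above it in each Empty library, was met by 10 RNAs (7.63%). It was met by 3.56% of all genes tested and by 2.51% of the other genes with at least 500 counts. Among LINC-numbered genes tested with fewer counts the share was 6.45%. The mean FPKM of the 10 RNAs in Empty ran from 0.250 to 4.22 with a median of 1.56. LINC01444 had 260, 236 and 313 counts in Empty and none in LINC00862, and was at least 93.8-fold lower. LINC01638, which has been linked to mesenchymal tumour cells, had 127, 218 and 252 counts in Empty and none in LINC00862, and was at least 69.4-fold lower. With a floor of 12 counts the bounds were 23.5-fold and 17.3-fold. Both were undetected in all 3 LINC00862 libraries.

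LINC01224 had 1293, 1024 and 1034 counts in Empty and 4, 4 and 4 counts in LINC00862, a log2 fold change of -7.98 (standard error 0.28). LINC00839, studied in neuroblastoma, had 1099, 996 and 952 counts in Empty and 4, 0 and 4 in LINC00862 (log2 fold change -8.41, standard error 0.50). The pile-up of counts at 4 also holds among the 131 RNAs, with 25 entries of 4 against 4 of 3 and 2 of 5. LINC00707, LINC00973 and LINC00565 fell, with log2 fold changes of -6.30, -6.47 and -6.15, and so did LINC02861, LINC00960 and LINC02057, with -4.71, -4.42 and -4.36. LINC01291 and LINC00958, the latter studied in bladder cancer, had log2 fold changes of -3.63 and -3.36. Without 1 of the LINC00862 libraries 4 of these moved by over 1.5 times, to -5.08 for LINC02057, -6.87 for LINC00565 and -7.16 for LINC00973 without library 3 and to -5.36 for LINC02861 without library 1. LINC02057 was the most uneven of the 8 in Empty, with 429, 351 and 144 counts there and 18, 0 and 23 in LINC00862.

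**Figure D3:**
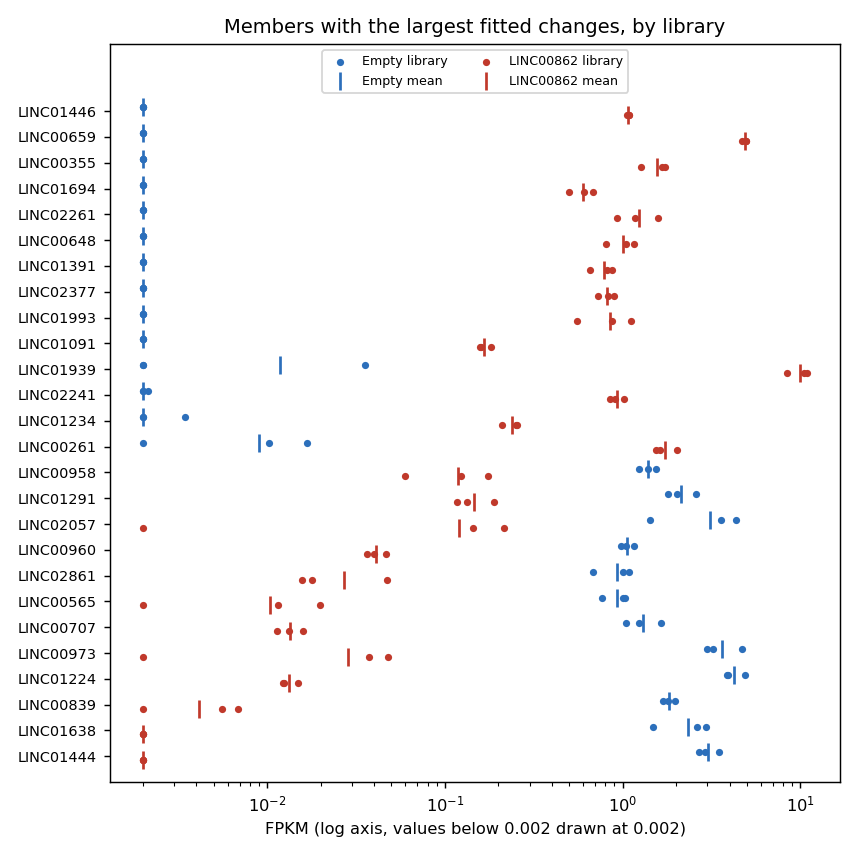
FPKM of single libraries (points, log axis, values below 0.002 drawn at 0.002) and group means (vertical bars) for the RNAs with the largest fitted rises and falls. The Empty points of the upper 14 RNAs lie at or near 0, and the LINC00862 points of the lower 12 lie far below their Empty points.

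At the limit itself, LINC01806 and LINC01993 had sums of 514 counts each and LINC01091 had 516, while LINC01480 with 484 and LINC00365 with 476 stayed outside. LINC01993, LINC01091 and LINC01480 drew all of their counts from LINC00862, and LINC00365 all but 4. LINC01806 had 28, 25 and 22 counts in Empty and 136, 120 and 183 in LINC00862. Of the 279 LINC-numbered genes tested with fewer counts, 167 were higher and 37 lower. These too can be tested through one group alone, and 77 of them had no count in any Empty library.

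Lists of lncRNAs by known association were compared by count. Of 11 liver-enriched or endoderm-linked lncRNAs listed, 10 were in the table and 5 were tested, of which 3 were higher and 2 were not called, LINC00313 and LINC01018. Over all genes tested 34.4% were higher and 29.8% lower, and of the 131 RNAs 66.4% were higher, so 3 of 5 is near the share of the LINC-numbered RNAs as a whole. The 3 were LINC01554, LINC00261 and LINC01348. LINC00261, transcribed next to the endoderm factor FOXA2, had 7, 4 and 0 counts in Empty and 866, 569 and 609 in LINC00862 (log2 fold change 7.58, and 8.36 without Empty library 1). LINC01348 had 15, 23 and 0 counts in Empty and 414, 356 and 249 in LINC00862 (log2 fold change 4.81, and 5.61 without Empty library 2). LINC01018, a liver-enriched lncRNA under the limit, had 10, 12 and 14 counts in Empty and 19, 19 and 31 in LINC00862 and was not called (adjusted p = 0.128, edgeR).

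Of 22 lncRNAs named in tumour growth or invasion, 16 were tested, with 7 higher, 8 lower and 1 not called, beside 34.4% higher and 29.8% lower over all genes tested, and 13 of them were among the 131. LINC00665 (92, 45 and 23 counts in Empty, 1238, 887 and 736 in LINC00862), LINC01134, LINC01503, LINC00662, LINC00467 and LINC01234 rose. LINC01224, LINC00973, LINC00707, LINC00958, LINC00470, LINC01116 and LINC00511 fell. LINC00470 had 162, 186 and 120 counts in Empty and 17, 22 and 25 in LINC00862, and LINC01116, which lies near the HOXD genes, had 238, 267 and 329 in Empty and 83, 72 and 68 in LINC00862. Neither overlapped between the groups.

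Of 10 mesenchymal or fibroblast-linked lncRNAs listed, 4 were tested, with 1 higher and 3 lower, beside the same 34.4% and 29.8% over all genes, and only LINC01638 was among the 131. LINC00702 (73, 68 and 82 counts in Empty, none in LINC00862) and LINC01615 (121, 114 and 186 in Empty, 3, 0 and 4 in LINC00862) fell, while LINC00922 had no count in Empty and 127, 88 and 52 in LINC00862. Of the lncRNAs reported to hold a translated small open reading frame, 2 were tested, and LINC00467 was higher and LINC01116 lower. None of 7 pluripotency or developmental lncRNAs listed could be tested, as the 2 in the table had too few counts.

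Protein-coding markers of cell types moved with these RNAs. The summed FPKM of 10 hepatocyte and hepatoma markers was 3.05 to 3.60 in the Empty libraries and 539 to 618 in the LINC00862 libraries, with 6 of 8 tested genes higher and 2 lower. In Empty, 7 of the 10 were under 0.1 FPKM, among them ALB, APOB, TTR and HNF4A, with APOH and TTR at 0, so these libraries lacked markers that define the labelled hepatoma cell type. In LINC00862, 5 of the 10 were under 0.1 FPKM, namely AFP (at 0), APOA1, APOH, SERPINA1 and HNF4A. The LINC00862 libraries therefore lacked part of these markers too. The sum of 8 mesenchymal markers was 567 to 628 in Empty and 15.1 to 19.6 in LINC00862 (1 higher, 6 lower), and that of 8 epithelial markers 194 to 287 and 489 to 560 (7 of 8 higher). Beside these calls, 34.4% of all genes tested were higher and 29.8% lower. The 5 leukocyte markers summed to 2.37 to 3.16 and 5.95 to 7.66, and 5 endothelial markers to 1.30 to 1.90 and 4.53 to 5.94, each with 1 of 5 higher. The part of these shifts in the levels of the lncRNAs was not tested. In RNA from whole cultures, fewer cells holding a transcript and less of it per cell cannot be told apart.

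Many lncRNAs are controlled together with, or act on, the nearest protein-coding gene, so the direction of that neighbour was set beside each RNA. Of the 87 higher RNAs, the nearest coding gene was higher for 44 (50.6%), lower for 18 (20.7%), not called for 15 and not tested for 10. Among 4597 other genes that were higher with at least 500 counts, the neighbour was higher for 41.1% and lower for 22.2%. Of the 22 lower RNAs, the neighbour was higher for 7, lower for 7, not called for 7 and not tested for 1, whereas 42.9% of 5435 other lower genes had a lower neighbour and 19.1% a higher one. Antisense-named genes, of which most overlap their neighbour, had a higher neighbour for 60 of 116 that were higher and a lower neighbour for 23 of 33 that were lower. None of these shares was tested, and the median distance to the neighbour was 19333 bases for higher and 24751.5 bases for lower RNAs. It was 2412 bases for the other higher genes, 1879 bases for the other lower genes and 0 for antisense-named genes. The sets therefore differ in how near the neighbour lies.

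Single pairs went both ways. LINC00261 lies 2363 bases from FOXA2, a pioneer transcription factor of endoderm and liver, which had a mean of 0.00706 FPKM in Empty and 6.22 FPKM in LINC00862 (log2 fold change 9.70, adjusted p = 2.06e-06, edgeR). LINC01391 lies 204 bases from FOXL2, a forkhead factor of the ovary, which rose from 0.00681 to 1.01 FPKM (log2 fold change 7.24). LINC00659 and its neighbour NTSR1, the neurotensin receptor, 11350 bases away, rose together (log2 fold change of NTSR1 7.86). LINC01939 lies 45310 bases from SNTG2, which was listed at 0 FPKM in Empty and 1.63 FPKM in LINC00862. In these 4 pairs both genes were at or near 0 in Empty.

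Downward pairs were LINC00973 with DCBLD2, 79363 bases away (log2 fold change of DCBLD2 -4.20), and LINC00958 with TEAD1, a factor of the Hippo pathway (-2.28, 16804 bases). Others were LINC01638 with MN1 (-3.76, 523143 bases) and LINC02057 with ZSWIM6 (-1.44, 27447 bases). Opposite directions were seen for LINC01993, which rose while BIRC5, an inhibitor of apoptosis used in dividing cells, fell by 2.52 on the log2 scale (35713 bases apart). LINC01116 fell while MTX2, 291547 bases away, rose (2.10), and LINC00963 rose while NTMT1, 95197 bases away, fell by 1.13. LINC01694 rose while SLC19A1, the reduced folate carrier, 20289 bases away, fell by 1.57. LINC01134 starts 59 bases from C1orf174 on the opposite strand, and the RNA rose by 3.09 while C1orf174 fell by 0.41 on the log2 scale. LINC01224 fell while ZNF91, 3762 bases away, had a log2 fold change of 0.05 and was not called. Of the pairs by distance, 13 of 22 RNAs whose start lay within 10 kb of that of a tested neighbour had the same sign as it, and 61 of 97 farther away did.

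Close pairs within the set also differed. LINC01291 and LINC01293 lie 7234 bases apart on chromosome 2, and LINC01291 fell by 3.63 while LINC01293 had a log2 fold change of 0.06 and was not called. LINC01409 and LINC01128, 15075 bases apart on chromosome 1, had log2 fold changes of 2.00 and 0.37, of which the first was called. LINC00667 and LINC00526 overlap on chromosome 18 and both rose (2.45 and 1.20). These are the only pairs of the set within 100 kb of each other.

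By annotation, 96 of the 131 are listed as lincRNA in GENCODE 29, 15 as processed transcripts, 8 as antisense and 2 as bidirectional promoter lncRNAs. A further 6 are listed as transcribed pseudogenes (5 unprocessed and 1 unitary) and 2 as protein-coding, and 2 are not in that release. Reads of the pseudogenes can be shared with their parent genes, which makes their values uncertain. In the deposited coordinates 56 overlap another listed gene on the opposite strand and 33 on the same strand, and 22 overlap a protein-coding gene. The library kit marked the strand, but whether the counting used it is not given in the sources used here, so values of overlapping genes may hold reads of their partners.

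The RefSeq starts differed between the sets split at 0.1 FPKM above and the other RNAs. A promoter was matched for 99 of the 131, and for 69 of them the RefSeq start lay within 500 bases of the start in the deposited table. The 64 matched RNAs in neither of these sets had a median of 18.5 CG dinucleotides in 300 bases. The 26 that were under 0.1 FPKM in Empty had a median of 4.5, and the 9 under 0.1 FPKM in LINC00862 had 7. The median was 14 over 35116 RefSeq promoters and 4 over 1739 LINC-numbered ones. Taking only starts within 500 bases gave medians of 19.5, 4.5 and 9 for 40, 22 and 7 RNAs.

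A CpG-rich start, here a ratio of observed to expected CG over 0.6 with GC over 50%, was found for 34 of the 64 (53.1%), 3 of the 26 (11.5%) and 1 of the 9 (11.1%), against 46.8% of all and 15.5% of LINC-numbered promoters. LINC00662 and LINC01134, printed above, are of the first kind, and LINC00659 and LINC01444 of the CpG-poor kind. LINC01134 itself lay near the limit of 0.1 FPKM in Empty, with 0.0953, 0.101 and 0.0735 FPKM. LINC00261 has a high ratio with a GC content of only 37%. LINC00862, with 3 CG dinucleotides and a GC content of 37.3%, was CpG-poor. These are descriptions, with no test, of groups chosen on level.

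**Figure D4:**
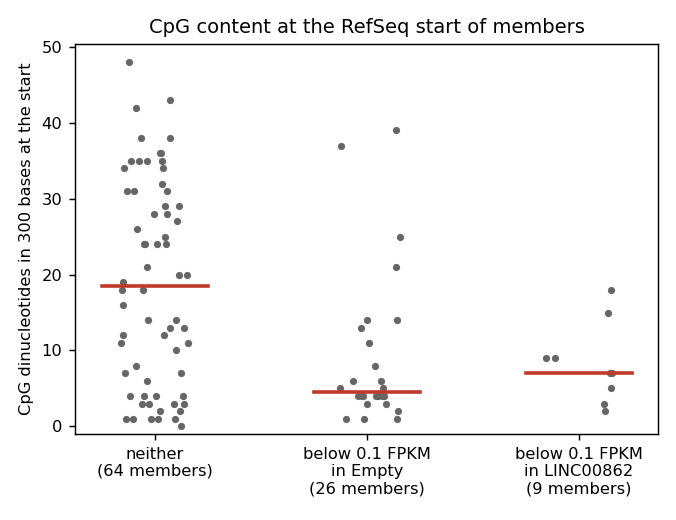
Number of CG dinucleotides in the 300 bases around the RefSeq start (y axis) for RNAs in neither set, in the Empty-low set and in the LINC00862-low set. A set was under 0.1 FPKM in each library of its group and in no library of the other group. Each point is an RNA (spread sideways at random), and the median is a red line. The medians are 18.5, 4.5 and 7.

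Short motifs were searched on both strands of the same windows. The TATA box TATAAA was in 7 of the 26 RNAs under 0.1 FPKM in Empty (26.9%), 1 of the 9 under it in LINC00862 and 7 of the 64 others (10.9%), against 11.5% of all promoters. The GC box GGGCGG was in 7 of 26 (26.9%), 1 of 9 and 31 of 64 (48.4%), against 45.0%. CCAAT was in 6 of 26 (23.1%), 6 of 9 and 33 of 64 (51.6%), against 34.6%. LINC-numbered promoters had TATAAA in 16.3%, GGGCGG in 18.9% and CCAAT in 36.0%. The share of GGGCGG in the 26 was thus below that of all promoters and above that of LINC-numbered ones. GGGCGG holds a CG itself, so its share is not independent of the CG count.

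Motifs of 4 factor families were also searched. The forkhead motif TGTTTAC was in 4 of the 99 windows (4.04%, all promoters 3.42%), among them that of LINC00261. The AP-1 motif TGANTCA was in 11 (11.1%, all 7.71%), the TEAD motif CATTCC in 10 (10.1%, all 14.0%) and the E-box CANNTG in 73 (73.7%, all 68.7%). Among LINC-numbered promoters the shares were 4.66% for TGTTTAC, 13.6% for TGANTCA, 18.4% for CATTCC and 78.8% for CANNTG. Each of these was above the share of the 99 windows. A match does not show that a factor binds, and no match says only that these letters are not in the window.

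The libraries of a group differed in how evenly they measured these RNAs. Among 69 RNAs with at least 250 counts in Empty, the coefficient of variation of FPKM over 3 libraries had a median of 22.3% and reached 71.7% for LINC00265, and 42 of the 69 were highest in Empty library 1. Among 114 with at least 250 counts in LINC00862 the median was 12.6%, and 34, 44 and 36 were highest in libraries 1, 2 and 3. LINC00265 had 0.824, 0.521 and 0.124 FPKM in Empty and 0.387, 0.502 and 0.362 FPKM in LINC00862, and was not called. LINC00641 had 5.26 FPKM in Empty library 1 and 2.18 to 2.73 FPKM in the other 5 libraries, and was not called either. Both were named after their values were seen. Without Empty library 1, 85 of the 131 RNAs were higher and 22 lower.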

How the data were processed

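Poly(A)-selected RNA of 3 Empty (labelled NC) and 3 LINC00862 libraries of cells labelled HCCLM3 was sequenced as paired ends. The adapters held unique molecular identifiers. Per the submitters' processing notes, the tools were cutadapt 1.9, HISAT2 2.0.4, UMI-tools, StringTie 1.3.4d, DESeq2 and edgeR, with build hg38. The annotation release, the use of strand and of identifiers in counting are not given in the sources used here. The authors deposited 1 table with a count and an FPKM value per gene and library; the counts are whole numbers and the deposited FPKM are normalised to transcript length and library. Columns with the authors' own comparisons were not used.

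Counts were tested with edgeR 4.0.16 in R 4.3.3 (filterByExpr, TMM, glmQLFit, glmQLFTest, no covariate), with Benjamini-Hochberg adjustment over the 20741 genes kept, at a false discovery rate of 0.05. This test gives all adjusted p-values printed. Levels are FPKM as mean ± SD. In simulated counts of 20010 genes, 26.8% of 97 genes changed 2-fold and 68.1% of 94 changed 4-fold were called, with 13 unchanged genes called. Far fewer genes were changed there than were called in the data (64.2% of those tested). The adjusted cutoff depends on that share, so these rates do not carry over to the data. Alternatives used DESeq2 1.42.0 and limma 3.58.1. The nearest coding gene was found by distance between gene bodies in the deposited coordinates; types came from GENCODE 29, matched by gene ID, and promoters from RefSeq by gene ID, symbol or synonym. Genes named are LINC00862, the 12 largest fitted rises and 12 largest falls among called RNAs without overlap, the 6 highest mean FPKM, the RNAs of the lists, those at the limit, and their neighbours; others are said to be chosen after their values were seen or are pairs within 100 kb. Members, lists and tests were chosen with earlier results of these data known. A marker gene and a motif are not reported here.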

Additional observations from a re-analysis of the deposited data

How the results depend on the processing

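Across DESeq2, every gene with at least 1 count, library size only, upper quartile scaling, the replicate block, limma-trend on FPKM and leaving out single libraries, 82 to 92 RNAs were higher and 20 to 23 lower, and 81 higher and 20 lower calls were kept in each of 13 fits. Tested against a fold change of 2, 78 were higher and 17 lower. The median log2 fold change of 2.06 was 1.89 with library size only, 2.27 with upper quartile scaling, 1.65 and 0.55 with limma-trend on FPKM + 0.1 and + 1, where the pseudocount shrinks low levels, and 1.99 to 2.31 without single libraries. Scaling moved the median of all genes tested from -0.05 (library size) to 0.32 (upper quartile), the median of the RNAs minus that median stayed at 1.94 to 1.95 in these fits, and higher genes made up 48.5% to 60.4% of all calls and 78.1% to 81.4% of those among the RNAs. A limit of 250 counts gave 206 RNAs with 141 higher and a median of 2.46, one of 1000 gave 78 with 51 higher, 14 lower and a median of 1.96, and 250 in each group gave 52 with 25 higher, 6 lower and a median of 0.60. Same-numbered libraries did not deviate together (correlations -0.049, -0.025 and -0.007), and the replicate block gave 83 higher and 21 lower. LINC00862 kept its call in every fit, with 2.91 to 3.83 without single libraries and 3.35 with the replicate block. Of 41 named RNAs, calls changed for LINC00511, described above, and LINC01578, which passed with upper quartile scaling (0.57, adjusted p = 0.0285, edgeR). Depth limits RNAs near 0, where a few counts set the fold change and where the lower bounds were smaller with a floor of 12 counts, chosen after the data were seen.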
